A study of Mus musculus with 2 samples.

Results

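Interferon-stimulated genes were followed in single-cell transcriptomes of mouse small-intestinal macrophages from wild-type and CCR2-deficient animals. A list of 39 such genes was used, and 38 of them were found among the 27998 genes of the count matrices. Mx2 was not found under that symbol. The 38 genes were read in 3 groups: 13 type I-style genes (the Ifit, Oas and Mx genes with Isg15, Irf7, Rsad2, Usp18, Ifi44 and Cmpk2), 9 gamma-inducible genes (Cxcl9, the guanylate-binding proteins Gbp2, Gbp3, Gbp5 and Gbp7, and the immunity-related GTPases Igtp, Irgm1, Iigp1 and Ifi47), and 16 further members such as Cxcl10, Bst2 and the RNA sensors. All 38 had a mean above 10 CPM (unique molecular identifiers, UMIs, of the gene per 1000000 UMIs of the library).

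Each genotype was represented by 1 library, made from 3 to 4 pooled intestines. Wild type meant C57BL/6J, male, obtained from Janvier. The CCR2-/- animals were JAX strain 004999 and bred in-house, and genotype therefore cannot be told apart from the source of the animals. No age was given, and no sex was given for the CCR2-/- animals. In both libraries live CD45+ cells negative for CD3, TCRb, B220, SiglecF, Ly6C and Ly6G and positive for CD11b, MHCII and CD64 were sorted and run with 10x 3′ v2 chemistry. CCR2 is the chemokine receptor through which blood monocytes leave the bone marrow, and animals lacking it are used as a model with few circulating monocytes. The gate leaves out Ly6C-bearing cells, which newly arrived monocytes are.

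Type I interferons act through the receptor pair Ifnar1 and Ifnar2 and assemble a complex that contains Stat2 and Irf9, which binds interferon-stimulated response elements (ISRE) in the promoters of antiviral genes. Interferon gamma acts through Ifngr1 and Ifngr2 and gamma-activated sites (GAS) in promoters, and switches on the chemokine Cxcl9, guanylate-binding proteins and immunity-related GTPases. Many genes answer to both, and intestinal macrophages are known to keep a low interferon tone in the presence of the microbiota.

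Kept cells had 200 or more genes and no more than 10% mitochondrial UMIs, 3016 of 3054 in wild type and 2612 of 2774 in the knockout. They held 20678108 and 7265386 UMIs, with a median of 6129 UMIs per cell in wild type and 2439 in the knockout. The wild-type barcodes carried 2 suffixes, read here as 2 lanes of 1 sample, with 2109 and 907 cells. The suffixes do not tell whether both came from 1 suspension. The lanes differed beyond counting error for the sum of the 3 C1q genes (log2 0.33, 0.32 to 0.35, lane 2 over lane 1). The lanes shared 5 barcodes, and the knockout shared 6 with lane 1 and 0 with lane 2. Ccr2 itself was at 347 CPM in lane 1, 293 CPM in lane 2 and 6.88 CPM in the knockout, as labelled. All 9 macrophage markers were present above 10 CPM in both libraries, with sums of 11741 CPM in the knockout and 14897 CPM in wild type. Of 4 neutrophil markers, S100a8 and S100a9 were at 0 in both. The 4 summed to 41.6 CPM in the knockout and 33.9 CPM in wild type, and Csf3r held 100% and 99.3% of these UMIs. The libraries also differed outside the interferon genes: 9 immediate-early genes summed to 21119 CPM in the knockout against 5404 CPM in wild type, 6 inflammatory cytokine genes to 9810 against 2903 CPM, 6 monocyte markers to 154 against 652 CPM, and 6 endothelial or fibroblast markers to 360 against 72.2 CPM. The part of these differences in the results below was not tested except where values are given. The monocyte list contains Ccr2, the deleted gene, so part of its difference was given by the genotype. Ccr2 held 50.7% of the wild-type and 4.48% of the knockout UMIs of that list.

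No test compares the genotypes, because each had 1 library, and every interval below is a 95% interval for counting error alone. Log2 ratios of single genes are knockout over wild type with 1 CPM added, and the ratio between the lanes serves as a yardstick within 1 sample. Where 3 levels follow each other, they are those of wild-type lane 1, wild-type lane 2 and the knockout. Over the 7401 genes with a mean of at least 10 CPM the median log2 ratio was 0.18, and median-of-ratios scaling moves it to 0. A member ratio of 0.18 therefore sits at the centre of all genes.

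The members as a whole lay close to that centre. Their median log2 ratio was 0.25, or 0.07 with median-of-ratios scaling, and the median between the lanes was -0.18. Of the 38 members, 25 were higher and 13 lower in the knockout, beside 62.3% higher and 37.7% lower among all genes. With median-of-ratios scaling 21 were higher, beside 50% of all genes, since Irf7, Parp14, Rtp4 and Samd9l changed sign. Only Isg15 and Rsad2 were at least 2-fold higher, beside 9.04% of all genes, and no member was at least 2-fold lower, beside 3.12% of all genes. With median-of-ratios scaling Isg15 was at 0.86 and no longer past 2-fold, Rsad2 was at 1.31, and Oas1a was at -1.12 and so past 2-fold lower, as were 6.43% of all genes. The interval excluded 0 for 20 members on the higher side, beside 47.8% of all genes, and for 7 on the lower side, beside 26.4%. The sign was the same against each lane in 31, beside 87.9%, and 26 differed between genotypes by more than between the lanes, where 73% of all genes did. Nothing about the list is read from these counts, and what follows concerns which members differed and in which cells.

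**Figure D1:**
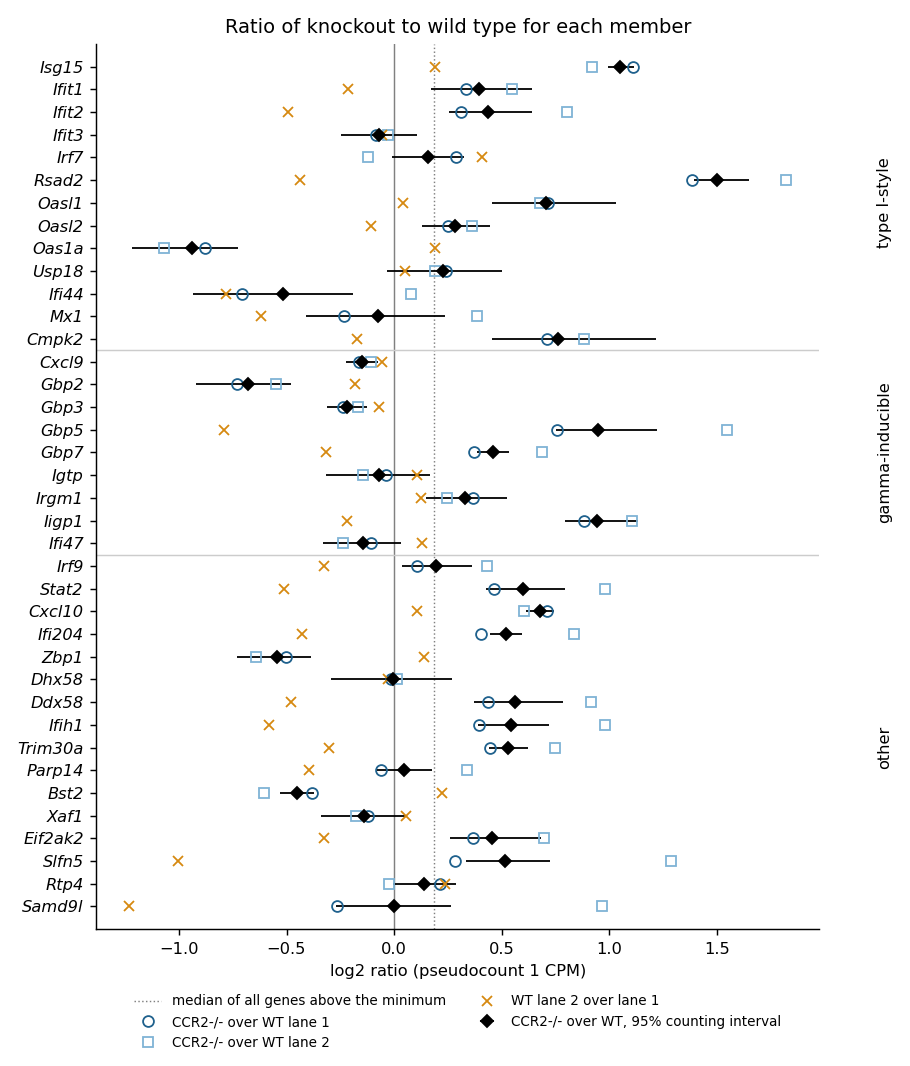
Log2 ratio of knockout to wild type (x axis, no unit, 1 CPM added) for each of the 38 members, with the 95% counting interval (diamonds and bars), the ratio to each wild-type lane (circle and square) and lane 2 over lane 1 (crosses). The dotted line marks the all-gene median of 0.18; Rsad2 (1.50) and Isg15 (1.05) lie farthest to the right, Oas1a (-0.94) farthest to the left, and Samd9l (-1.23) and Slfn5 (-1.003) differ most between the lanes.

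The promoters of 6 members are shown first, because interferons are known to reach these genes through ISRE and GAS. All 6 carry ISRE letters, and they do not stand for the whole list. RefSeq windows of 300 bases (250 before to 50 after the start, GRCm38.p6) were matched by symbol for 30 of the 39 listed genes, in 34 windows. The letters GAAA, any 2 bases and GAAA again, read on both strands and standing for an ISRE, were found in 20 of the 34 windows (58.8%) and in 3.44% of all 32851 promoter windows. The letters TTC, any 3 bases and GAA, the same on both strands and standing for a GAS, were found in 7 of 34 windows (20.6%) and in 8.30% of all. The ISRE letters did not follow the grouping: they were in the promoters of 5 of 11 type I-style genes, 6 of 8 gamma-inducible genes and 8 of 11 others. Among the windows not shown, those of Cxcl9, Irf7, Oasl1, Oasl2, Cmpk2, Ifi44, Ifi47, Irf9, Xaf1 and Samd9l had neither motif. That of Gbp2 had ISRE letters and no GAS letters. A match describes letters and is not evidence of binding. In the sequences below, the 250 bases before the start are written 5′ to 3′ on the strand of the gene, and capitals mark ISRE or GAS letters, which overlapped each other in none of these 6 windows.
Isg15: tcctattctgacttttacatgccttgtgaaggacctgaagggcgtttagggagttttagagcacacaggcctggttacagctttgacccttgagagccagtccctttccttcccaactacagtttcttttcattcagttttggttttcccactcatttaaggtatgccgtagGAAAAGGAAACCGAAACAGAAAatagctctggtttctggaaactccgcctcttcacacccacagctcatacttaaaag
Rsad2: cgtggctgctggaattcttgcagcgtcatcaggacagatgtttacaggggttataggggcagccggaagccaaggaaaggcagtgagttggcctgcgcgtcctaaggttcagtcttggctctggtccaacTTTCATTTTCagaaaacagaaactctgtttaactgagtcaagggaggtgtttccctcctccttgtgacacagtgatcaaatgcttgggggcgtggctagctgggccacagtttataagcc
Oas1a: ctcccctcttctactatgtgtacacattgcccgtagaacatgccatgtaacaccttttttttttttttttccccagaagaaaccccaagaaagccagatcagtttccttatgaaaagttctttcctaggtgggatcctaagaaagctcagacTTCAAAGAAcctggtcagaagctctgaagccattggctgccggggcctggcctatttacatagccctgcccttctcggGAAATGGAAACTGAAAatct
Cxcl10: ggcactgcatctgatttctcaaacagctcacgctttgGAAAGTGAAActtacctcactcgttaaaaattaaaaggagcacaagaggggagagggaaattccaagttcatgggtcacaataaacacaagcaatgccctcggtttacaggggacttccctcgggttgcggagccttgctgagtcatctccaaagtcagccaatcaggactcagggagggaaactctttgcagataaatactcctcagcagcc
Gbp7: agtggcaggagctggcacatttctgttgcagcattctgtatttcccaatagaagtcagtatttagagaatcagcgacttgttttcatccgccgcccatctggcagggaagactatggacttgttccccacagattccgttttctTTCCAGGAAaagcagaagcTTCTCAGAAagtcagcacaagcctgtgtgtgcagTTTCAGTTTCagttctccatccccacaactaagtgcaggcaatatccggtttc
Igtp: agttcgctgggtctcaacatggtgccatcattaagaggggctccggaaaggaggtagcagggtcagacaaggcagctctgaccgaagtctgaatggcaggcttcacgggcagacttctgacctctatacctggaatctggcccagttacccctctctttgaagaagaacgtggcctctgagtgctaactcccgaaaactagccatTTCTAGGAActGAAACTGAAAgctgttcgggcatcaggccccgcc
The Isg15 stretch (chr4:156200819-156201068, minus strand) carries 3 overlapping ISRE matches between 57 and 78 bases before the start. Rsad2 (chr12:26456453-26456702, minus strand) carries 1, from 111 to 120 bases before the start. Oas1a (chr5:120907526-120907775, minus strand) carries 2 overlapping ISRE matches between 5 and 20 bases before the start and a GAS match 90 bases before it. Cxcl10 (chr5:92348890-92349139, minus strand) carries 1 ISRE match, 204 to 213 bases before the start. Gbp7 (chr3:142530086-142530335, plus strand) carries an ISRE match 44 to 53 bases before the start and 2 GAS matches farther out, the nearer at 79 bases. In Igtp (chr11:58199306-58199555, plus strand) an ISRE match at 25 to 34 bases and a GAS match at 37 bases lie side by side.

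Among the type I-style genes the UMIs summed over the 13 members were higher in the knockout, and 2 genes made up most of that difference. The sum was 1000.1 CPM in the knockout and 620.5 CPM in wild type, with 618.6 CPM in lane 1 and 624.9 CPM in lane 2. The lanes overlapped within counting error (log2 0.01), and the log2 ratio of the genotypes was 0.69 (0.65 to 0.73). Without Isg15, which held 39.6% of the wild-type UMIs of the group, the ratio was 0.39 (0.33 to 0.45), and without Isg15 and Rsad2 it was 0.11 (0.05 to 0.18), below the all-gene median of 0.18. In number, 9 members were higher and 4 lower, with a median log2 ratio of 0.28, and with median-of-ratios scaling 8 were higher and 5 lower, with a median of 0.095.

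Isg15, a ubiquitin-like protein that is both conjugated to proteins and secreted (chromosome 4, 156199424 to 156200818, minus strand), had 235.8 CPM in wild-type lane 1, 269.4 CPM in lane 2 and 509.7 CPM in the knockout. The knockout lay above both lanes, at a log2 ratio of 1.05 (0.99 to 1.11), and the lanes differed by 0.19. Rsad2 encodes viperin, a radical SAM enzyme that makes a chain-terminating nucleotide against viral polymerases (chromosome 12, 26442746 to 26456452, minus strand). It had 52.0 CPM in lane 1, 38.2 CPM in lane 2 and 137.4 CPM in the knockout, a log2 ratio of 1.50 (1.39 to 1.65) against -0.44 between the lanes. Its neighbour Cmpk2, a mitochondrial nucleotide kinase encoded beside it on the opposite strand, had 7.69, 6.71 and 13.2 CPM in the same order, a log2 ratio of 0.76. All 3 genes were higher in the knockout than in either lane.

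The Oas family split. Oas1a, an oligoadenylate synthetase that activates RNase L when it meets double-stranded RNA (chromosome 5, 120896256 to 120907521, minus strand), had 41.9 CPM in lane 1, 47.8 CPM in lane 2 and 22.3 CPM in the knockout. It was below both lanes, with a log2 ratio of -0.94 (-1.22 to -0.73). A range of 2000 to 4000 UMIs held 713 of 3016 wild-type cells and 1051 of 2612 knockout cells. For wild type it lies below the median of 6129 UMIs, so it brings depth closer but may take different kinds of cell. Among the cells in this range Oas1a had 27.9 CPM in wild type against 21.1 CPM in the knockout, and the ratio was -0.39. Oasl1, a family member known to restrain Irf7 translation, went the other way, with 13.2, 13.6 and 22.3 CPM and a log2 ratio of 0.70 (0.46 to 1.03). Oasl2 had 54.6, 50.6 and 65.2 CPM, a log2 ratio of 0.28. Oas1a has close paralogs in its cluster, so the division of its reads is uncertain.

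The Ifit genes, whose products bind foreign RNA by its 5′ end, were close in both genotypes. Ifit1 had 24.5 and 20.96 CPM in the lanes and 31.1 CPM in the knockout (log2 0.39), Ifit2 had 36.6, 25.7 and 45.6 CPM (log2 0.44), and Ifit3 had 51.5, 49.5 and 48.4 CPM (log2 -0.07). For Ifit2 the lanes themselves differed by -0.49, more than the genotypes did, and among cells with 2000 to 4000 UMIs its ratio was 0.01. The reads of Ifit3 may be shared with a near-identical copy. Irf7, the transcription factor that amplifies type I interferon production, had 45.9 CPM in lane 1, 61.2 CPM in lane 2 and 56.3 CPM in the knockout, which lay between the lanes. Usp18, which removes Isg15 from proteins and damps the type I receptor, had 19.4, 20.1 and 23.1 CPM, an interval that included 0 (-0.03 to 0.50). Mx1, a dynamin-like antiviral GTPase, had 17.6, 11.1 and 14.9 CPM, and Ifi44 had 17.9, 10.0 and 10.6 CPM, so that for both genes lane 2 was lower than lane 1 and the knockout was not outside the lanes.

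**Figure D2:**
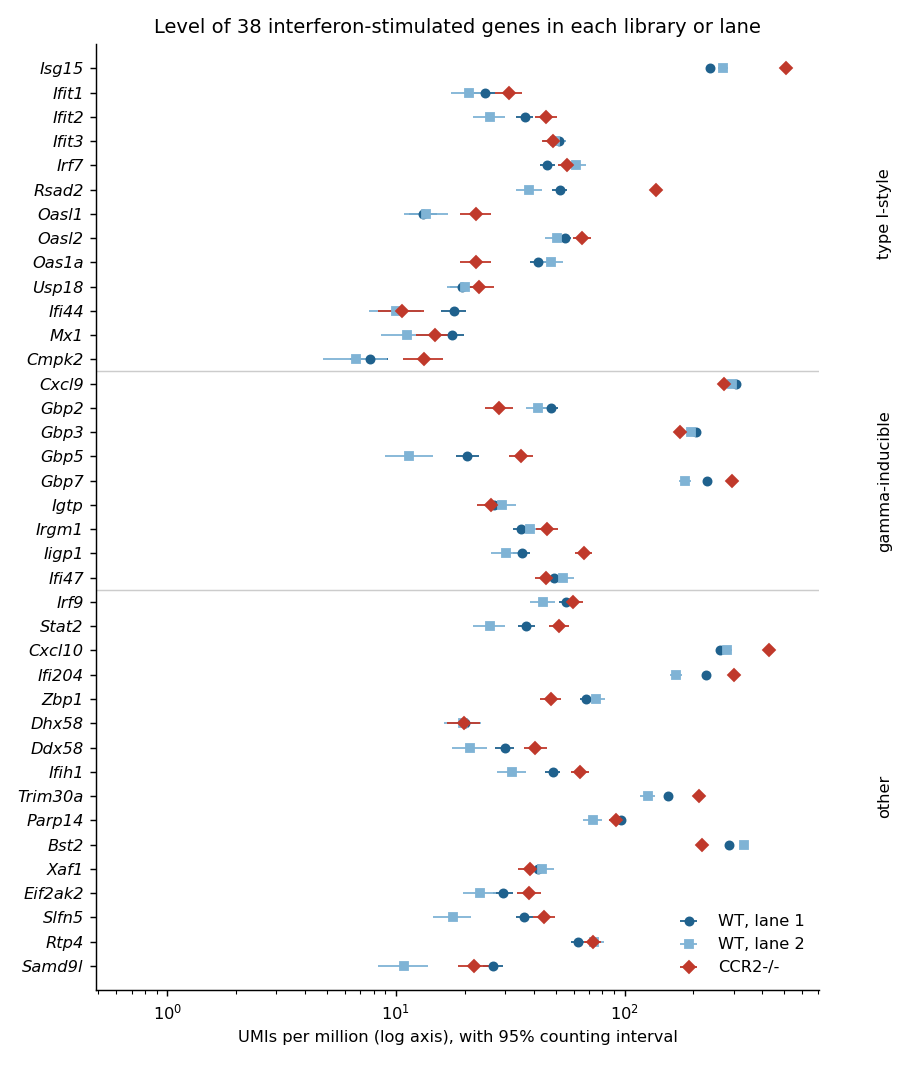
Level of each of the 38 members (x axis, CPM, log axis) in wild-type lane 1 (dark circle), wild-type lane 2 (light square) and the knockout (red diamond), with 95% counting intervals. Isg15, Rsad2 and Cxcl10 in the knockout lie clear of both lanes to the right and Oas1a to the left, while members such as Irf7 and Mx1 lie between the lanes.

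The gamma-inducible genes as a group were at nearly the same level in both genotypes. Their sum was 990.3 CPM in the knockout and 932 CPM in wild type, with 955 CPM in lane 1 and 878 CPM in lane 2. The log2 ratio was 0.09 (0.05 to 0.13), smaller than the all-gene median, and it became -0.10 with median-of-ratios scaling. In number, 4 members were higher and 5 lower, with a median of -0.07, or -0.25 with median-of-ratios scaling. Cxcl9 held 32.4% of the wild-type UMIs of the group, and without it the log2 ratio was 0.19. Within this level sum the members went opposite ways.

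Cxcl9, a chemokine that draws T cells through CXCR3 (chromosome 5, 92321347 to 92328079, minus strand), had 306 CPM in lane 1, 294 CPM in lane 2 and 273 CPM in the knockout, a log2 ratio of -0.15 (-0.22 to -0.08). The guanylate-binding proteins, which attack the vacuoles and membranes of intracellular microbes, were divided. Gbp5, known for promoting inflammasome assembly, had 20.5, 11.5 and 35.4 CPM (log2 0.95), although the lanes differed by -0.79 and the ratio was 0.62 among cells with 2000 to 4000 UMIs. Gbp7 (chromosome 3, 142530342 to 142550149, plus strand) had 229, 184 and 296 CPM (log2 0.46, 0.38 to 0.53). Against these, Gbp2 (chromosome 3, 142620602 to 142638008, plus strand) had 47.6, 41.9 and 28.4 CPM (log2 -0.68, -0.92 to -0.48), and Gbp3 had 205, 196 and 174 CPM (log2 -0.22). The 4 genes lie in 1 cluster on chromosome 3 and resemble each other, so reads in shared sequence are uncertain. Their sum was 534 CPM in the knockout and 482 CPM in wild type, a log2 ratio of 0.15.

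The immunity-related GTPases, which disrupt or guard pathogen vacuoles, summed to 184 CPM in the knockout and 148 CPM in wild type (log2 0.31), and 1 gene stood out. Iigp1, an effector GTPase, had 35.5 CPM in lane 1, 30.3 CPM in lane 2 and 66.2 CPM in the knockout, above both lanes (log2 0.94, 0.79 to 1.13). Irgm1, a regulatory member that protects the cell's own membranes, had 35.4, 38.6 and 46.0 CPM (log2 0.33). Igtp, also regulatory, had 26.8, 29.0 and 26.2 CPM, and the effector Ifi47 had 49.1, 53.9 and 45.6 CPM, and both intervals included 0. Of the knockout cells, 129 had C1q UMIs below 0.1% of their total, and Iigp1 was at 232 CPM in them against 55.5 CPM in the 2483 C1q-rich cells. Among C1q-rich cells of both genotypes its log2 ratio was 0.69, and among cells with 2000 to 4000 UMIs it was 0.42. The 6 endothelial or fibroblast markers were 360 against 72.2 CPM in the same libraries, and their part in the Iigp1 level was not tested.

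Of the 16 other members 12 were higher and 4 lower, where 62.3% of all genes were higher, and with median-of-ratios scaling 9 were higher and 7 lower. Their median log2 ratio was 0.33, or 0.14 with that scaling, and all genes had 0.18 and 0. They had sums of 1751 CPM in the knockout and 1448 CPM in wild type (log2 0.27, 0.24 to 0.30). Cxcl10, the second CXCR3 ligand on the list (chromosome 5, 92346638 to 92348889, minus strand), had 261 CPM in lane 1, 281 CPM in lane 2 and 428 CPM in the knockout, above both lanes (log2 0.68, 0.61 to 0.74). Its neighbour Cxcl9 was thus lower and Cxcl10 higher in the same library. The cytosolic RNA sensors Ifih1 (MDA5; 48.5, 32.1 and 64.1 CPM) and Ddx58 (RIG-I; 29.9, 21.1 and 40.7 CPM) had log2 ratios of 0.54 and 0.56, while Dhx58, which encodes the related LGP2, had 20.04, 19.6 and 19.8 CPM. For Ifih1 the lanes differed by -0.58, more than the genotypes.

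Stat2, the type I-specific signal transducer, had 37.1 CPM in lane 1, 25.7 CPM in lane 2 and 51.6 CPM in the knockout (log2 0.60), and its DNA-binding partner Irf9 had 55.2, 43.9 and 59.6 CPM (log2 0.20). Ifi204, a PYHIN protein that senses DNA, had 227, 168 and 301 CPM (log2 0.52), and Trim30a, a TRIM protein, had 156, 126 and 212 CPM (log2 0.53). Both belong to clusters of near-identical genes. Eif2ak2, the kinase PKR that halts translation on double-stranded RNA, had 29.4, 23.3 and 38.3 CPM (log2 0.46). These 5 genes were higher in the knockout than in both lanes, and in each of them lane 2 was the lowest. For Irf9 the lanes differed by -0.33, more than the genotypes, and its ratio was 0.008 with median-of-ratios scaling.

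On the lower side were Bst2 (tetherin, which holds budding virus at the cell surface), with 285, 333 and 219 CPM (log2 -0.45), and Zbp1 (a sensor of Z-form nucleic acid that triggers necroptosis), with 67.9, 74.8 and 47.6 CPM (log2 -0.55). Both were below each lane by more than the lanes differed, but the ratio of Zbp1 was -0.15 among cells with 2000 to 4000 UMIs. Xaf1 had 42.0, 43.7 and 38.5 CPM and Rtp4 62.6, 73.8 and 72.7 CPM, and neither interval excluded 0. Parp14, an ADP-ribosyltransferase, had 96.0, 72.7 and 92.1 CPM, inside the range of the lanes. Slfn5 (36.4, 17.7 and 44.6 CPM) and Samd9l (26.7, 10.8 and 22.02 CPM) were 2-fold or more apart between the wild-type lanes, which 0.878% of all genes were, so nothing is read from their genotype ratios.

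In the rest of the pathway the receptors differed little, and the ligands were too rare to compare. Of 12 interferon ligand genes, 8 had 0 UMIs in both libraries and none reached 10 CPM. Ifnb1 had 7 wild-type UMIs and 0 in the knockout, where a count of 0 allows up to 0.413 CPM (3 UMIs), Ifna2 had 3 and 2, and Ifng had 1 and 0, so a difference was not detectable at this depth. The receptors Ifngr1 (198 CPM in the knockout, 168 CPM in wild type), Il10rb (187 and 140 CPM), Ifngr2 (166 and 140 CPM) and Ifnar2 (113 and 140 CPM) differed by at most 0.42 on the log2 scale (Il10rb), and Ifnlr1, the lambda receptor, was at 0 in both. Of the 14 signalling genes, 11 were higher and 3 lower (median 0.31), where 62.3% of all genes were higher, and with median-of-ratios scaling 8 were higher and 6 lower (median 0.13). Those with a high mean included Irf8 (580 and 389 CPM, log2 0.58), Irf1 (204 and 106 CPM, log2 0.94) and Jak1 (159 and 124 CPM, log2 0.35). The only one past 2-fold was Socs3, a feedback inhibitor that cytokine signalling induces through Stat3 (log2 1.29), named after its value was seen. Of the 9 nucleic acid sensing genes above the minimum, 7 were higher and 2 lower under either scaling (median 0.36, or 0.18 with median-of-ratios scaling), and the 4 with the highest mean were Myd88 (74.5 and 54.9 CPM), Tmem173, which encodes STING (46.8 and 53.2 CPM), the kinase Tbk1 (60.8 and 33.3 CPM) and Tlr7 (45.0 and 37.8 CPM).

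The summed UMIs of the type I-style genes were gathered in few cells, more so than the summed UMIs of the gamma-inducible genes. To compare libraries of unequal depth, each cell was thinned to 1000 UMIs, which left 3015 wild-type and 2416 knockout cells, with 1 and 196 shallower cells left out. The richest 5% of wild-type cells then held 44.2% of the type I-style UMIs (42.0 to 46.4), where even Poisson sampling at the same mean would give 20.5%. In the knockout they held 36.1% (34.2 to 38.1) against 17.7% under even sampling. For the gamma-inducible genes the shares were 27.8% against 17.5% in wild type and 24.4% against 17.4% in the knockout. The richest 1% of cells held 18.9% of wild-type and 13.7% of knockout type I-style UMIs, and 9.74% and 7.59% of the gamma-inducible ones.

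The lower share in the knockout came with more cells that had any Isg15 UMI. At 1000 UMIs, Isg15 was present in 17.1% of wild-type cells (17.2% in lane 1, 16.8% in lane 2) and in 29.0% of knockout cells, where even sampling would give 23.9% and 39.1%. Before thinning, with the wild-type cells the deeper, the shares were 45.3% and 44.9%. Rsad2 was present in 3.12% of wild-type and 7.95% of knockout cells at 1000 UMIs, and in 11.0% and 14.3% before thinning. Without Isg15 the shares of the richest 5% of cells were close, 49.0% in wild type and 48.6% in the knockout, with 28.2% and 24.3% under even sampling. For comparison with cells of another lineage, 23 wild-type and 25 knockout cells (median 8757 and 2243 UMIs before thinning) that had UMIs of at least 2 lymphoid genes and fewer than 5 of C1q were read, and they had Isg15 in 0 of 23 and 12.0% of cells, Rsad2 in 0 of each, and Cxcl10 in 4.35% and 16.0%. C1q-rich cells of wild type had Isg15 in 17.1%, Rsad2 in 3.11% and Cxcl10 in 13.3% at the same depth, and those of the knockout in 29.1%, 8.03% and 18.8%. The knockout lymphoid intervals for Isg15 (2.55% to 31.2%), Rsad2 (0% to 13.7%) and Cxcl10 (4.54% to 36.1%) cover the C1q-rich shares. The wild-type intervals cover them for Rsad2 (0% to 14.8%) and Cxcl10 (0.11% to 21.9%), but not for Isg15 (0% to 14.8%). Covered shares of macrophages are not read as above free RNA at 23 and 25 cells. Lymphoid cells can express these genes themselves, and 0 of 23 cells allows a share of up to 14.8% (exact binomial), so this is a loose bound on free RNA.

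**Figure D3:**
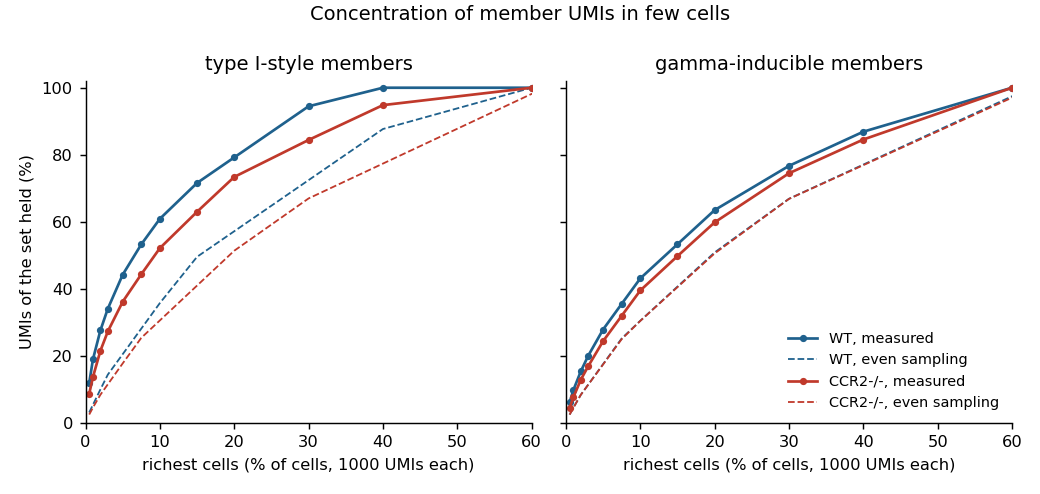
Share of UMIs (y axis, percent) held by the richest cells (x axis, percent of cells at 1000 UMIs each) for the type I-style (left) and gamma-inducible (right) members, as measured (solid) and under even Poisson sampling at the same mean (dashed), in wild type (blue) and knockout (red). At 10% of cells the measured type I-style curves reach 60.9% (wild type) and 52.1% (knockout), and the gamma-inducible curves 43.1% and 39.5%, with even-sampling values of 30.4% to 35.7%.

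The concentration was seen most in particular genes. The Fano factor, the variance of a gene's thinned UMIs over its mean, is 1 under even sampling. Its median over the members was 1.09 in wild type against 1.19 in the knockout, and over all genes above the minimum 1.02 and 1.07. In wild type 9 of 38 members and in the knockout 6 of 38 were above the 95th percentile of all genes (1.21 and 1.33). The 2 CXCR3 ligands and the 2 genes highest in the knockout led: Cxcl10 had 3.78 in wild type and 3.90 in the knockout, Cxcl9 3.31 and 2.21, Isg15 2.30 and 2.05, and Rsad2 2.27 and 3.69. Single cells reached 186 Cxcl10 UMIs and 165 Cxcl9 UMIs in wild type before thinning. At the other end, Igtp (0.98 and 1.01), Irgm1 (1.03 and 0.97), Dhx58 (1.01 and 0.98), Irf9 (1.02 and 1.02) and Oas1a (1.001 and 0.98) were at or near 1. These genes were sparse, with wild-type means from 0.021 (Dhx58) to 0.059 (Irf9) UMIs per cell, against 0.27 for Isg15 and 0.32 for Cxcl9. At such low means the factor can stay near 1 for an uneven gene, so a value near 1 is not read as even spread. Oas1a and Rsad2, which differed between the genotypes in opposite directions, thus also lay at opposite ends of this range. Their means were 0.036 and 0.049 UMIs per cell in wild type, and 0.016 and 0.135 in the knockout.

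Type I-style genes met in the same cells. With Isg15 left out, 31 cells of 3015 (1.03%, 0.70 to 1.46) in wild type and 31 of 2416 (1.28%, 0.87 to 1.82) in the knockout had UMIs of at least 4 different type I-style genes at 1000 UMIs. If the genes were independent at their own detection rates, 0.636 and 0.742 such cells would be counted. Both wild-type lanes contributed, with 23 and 8 cells. For the gamma-inducible genes the counts were 32 cells against 8.40 under independence in wild type and 20 against 7.38 in the knockout, a smaller excess.

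The cells rich in type I-style UMIs were then described by genes that had no part in choosing them. The cells with at least 4 type I-style UMIs of 1000 in wild type (110 cells, 3.65%, with 74 in lane 1 and 36 in lane 2) and at least 5 in the knockout (85 cells, 3.52%) were taken, so that the shares were alike. They held 38.01% and 29.96% of the type I-style UMIs. These cells are one end of a range and no separate type: 42 wild-type cells sat on the bound and 69 were 1 UMI below it, and in the knockout 23 and 45. With the same bound of 5 UMIs, 2.26% (1.76 to 2.85) of the wild-type and 3.52% (2.82 to 4.33) of the knockout cells passed, and 21 and 19 cells had 10 or more.

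Rich cells carried most other members at higher level, and Cxcl10 foremost. Cxcl10 was at 1796 CPM in rich and 213 CPM in other wild-type cells, and at 1859 and 373 CPM in the knockout, log2 ratios of 3.08 and 2.32. Both lanes gave it, with 3.36 and 2.32. Iigp1 had log2 ratios of 2.68 (wild type) and 2.44 (knockout), and similar values were found for Slfn5 (2.47 and 2.07), Rtp4 (2.39 and 2.15), Dhx58 (2.29 and 1.93), Ifih1 (2.26 and 1.88) and Parp14 (2.18 and 2.15). Dhx58 was thus higher in rich cells although its own Fano factor was near 1. Stat2 had 1.78 and 1.72, but its partner Irf9 only 0.13 and 0.28, with counting intervals that included 0 in both genotypes.

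The gamma-inducible members differed in how far they rose in rich cells, and so did the sums of their families. Cxcl9 had 1247 CPM in rich and 269 CPM in other wild-type cells (log2 2.21) and 986 and 246 CPM in the knockout (log2 2.004). The immunity-related GTPases together had log2 ratios of 2.05 and 1.86, and the guanylate-binding proteins 0.83 and 0.89, with Gbp3 at 0.64 and 0.54 and Gbp2 at 0.79 and 0.93. Summed, the immunity-related GTPases had the higher ratio in each wild-type lane (2.18 against 0.93, and 1.72 against 0.57) and in the knockout. Abundant genes weigh most in these sums: Gbp7 and Gbp3 held 4452 and 4188 of the 9959 wild-type UMIs of the guanylate-binding proteins. The sums therefore do not give the order of single members. Bst2 gave 1.04 in wild type and 0.36 in the knockout. Outside the members, Irf1, a gene known for its answer to interferon gamma, had 0.27 and -0.14 with intervals including 0.

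Depth and C1q level were close in rich and other cells. Median UMIs per cell were 5609 in rich and 6145 in other wild-type cells, and 2949 and 2584 in the knockout. C1q UMIs had log2 ratios of 0.18 and 0.14, and the interferon receptors -0.29 and -0.49. The immediate-early genes had 0.30 and -0.09 and the inflammatory cytokine genes 0.70 and 0.21, well below the difference of these lists between the libraries. The summed monocyte markers were higher in rich cells, by 0.65 and 1.51, and Cd163 was lower, by -1.33 and -2.001. The monocyte sum rests on different genes in each library, with Ccr2 at 50.7% of its wild-type and 4.48% of its knockout UMIs. Its single members are not given, and no monocyte state of the rich cells is read from it. Markers of plasmacytoid dendritic cells, known as strong interferon producers, were lower in rich cells, where their 6 genes together had 5 wild-type and 4 knockout UMIs.

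**Figure D4:**
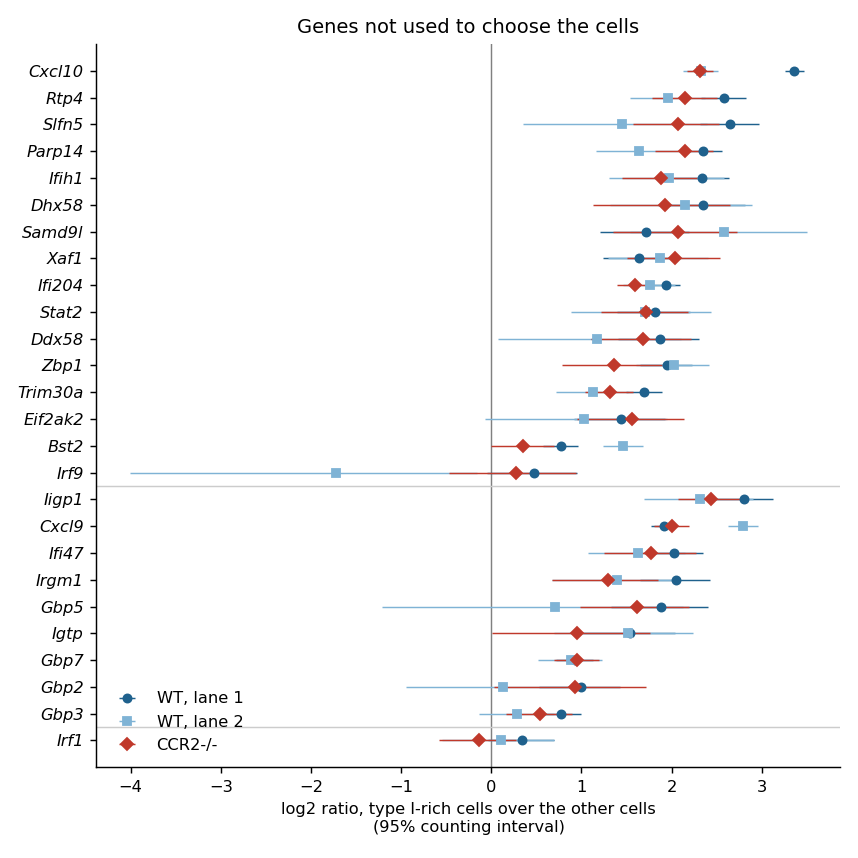
Log2 ratio (x axis, no unit) of the level in type I-rich cells to that in the other cells for the other members (top), the gamma-inducible members (middle) and Irf1 (bottom), in wild-type lane 1, wild-type lane 2 and the knockout, with 95% counting intervals. Cxcl10, Iigp1 and Cxcl9 lie at or above 1.91 in each, while Irf9 and Irf1 lie near 0 apart from Irf9 in lane 2 (-1.72).

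Wild-type cells with UMIs of both Ccr2 and Plac8, a monocyte marker, differed from other wild-type cells for a few members, Gbp2 above all. There were 545 such cells of 3016 (375 in lane 1, 170 in lane 2), with a median of 8848 UMIs against 5644. Gbp2 was at 95.4 CPM in them and 29.9 CPM in the other wild-type cells (log2 1.67, with 1.62 in lane 1 and 1.83 in lane 2), and the knockout was at 28.4 CPM. Without these cells the log2 ratio of Gbp2 was -0.07 in place of -0.68. Oas1a was at 51.5 and 41.1 CPM, both above the 22.3 CPM of the knockout, and without these cells its log2 ratio was -0.85.

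Several members were lower in the same cells. Iigp1 was at 20.3 CPM in Ccr2 and Plac8 cells and 38.4 CPM in other wild-type cells (log2 -0.92), Gbp7 at 147 and 238 CPM (-0.69), and Isg15 at 192 and 263 CPM (-0.45). Irf7 (63.6 and 46.2 CPM) and Usp18 (25.3 and 17.8 CPM) were higher. The type I-style sum was 573 and 636 CPM (log2 -0.15) and the gamma-inducible sum 876 and 950.2 CPM (log2 -0.12). Without these cells Isg15 had a log2 ratio of 0.95 and Rsad2 of 1.41, so the difference of both genes between the genotypes was also present among the remaining cells.

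**Figure D5:**
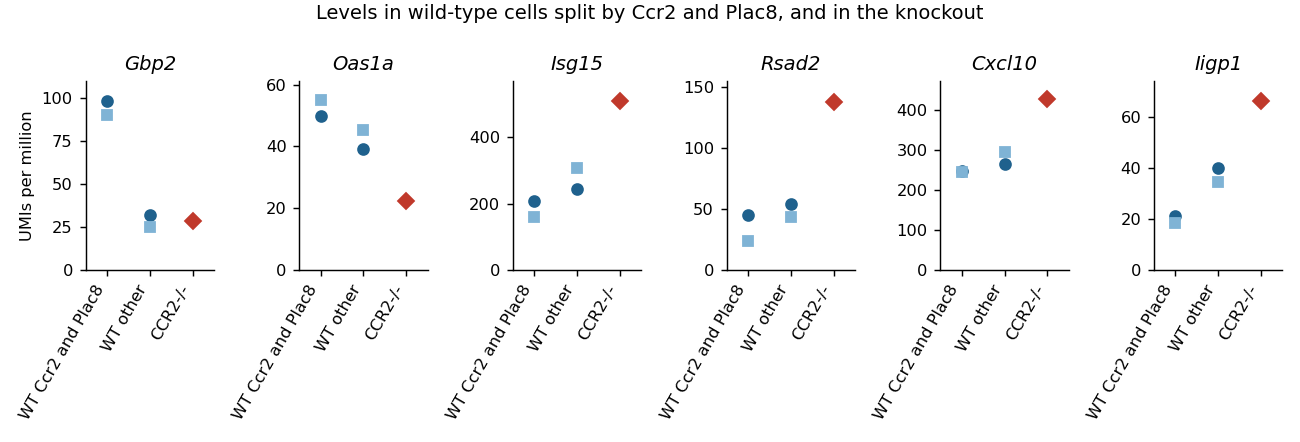
Level (y axis, CPM, from 0) of 6 members in wild-type cells with Ccr2 and Plac8 UMIs, in the other wild-type cells and in the knockout; circles are wild-type lane 1, squares lane 2 and diamonds the knockout. For Gbp2 the other wild-type cells (29.9 CPM over both lanes) lie at the level of the knockout (28.4 CPM), while for the other 5 genes the knockout lies outside both wild-type fractions.

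Since the inflammatory cytokine genes were higher in the knockout, cells were also split within each library at the median share of these genes. In wild type Rsad2 was at 69.1 CPM in the upper and 27.4 CPM in the lower cells (log2 1.33), Cxcl10 at 383 and 155 CPM (1.30), Oasl1 at 18.1 and 8.66 CPM (1.06) and Isg15 at 314 and 179 CPM (0.81). In the knockout the same split gave 171 and 106 CPM for Rsad2 (0.69), 544 and 321 CPM for Cxcl10 (0.76) and 549 and 474 CPM for Isg15 (0.21). The type I-style sum followed the cytokines with log2 ratios of 0.61 (wild type) and 0.25 (knockout), and the gamma-inducible sum with 0.20 and -0.02. Rsad2, Cxcl10 and Isg15 were thus higher in the cytokine-rich cells of both libraries, and the part of this in their difference between the genotypes was not tested. A split by immediate-early genes gave 0.32 for the type I-style sum in wild type and -0.16 in the knockout, opposite in sign.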

How the data were processed

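The matrices deposited by the authors held UMI counts per gene and cell, 1 matrix per genotype, made with Cell Ranger 3.0.1 on mm10 per the submitters' processing notes. Gene coordinates were taken from GENCODE M21 (GRCm38). From the counts, cells were kept from 200 genes upward and up to 10% mitochondrial UMIs, UMIs were summed per library and wild-type lane, and CPM was computed with exact Poisson intervals. Sums were compared by exact conditional binomial intervals and shares of cells or UMIs by exact Clopper-Pearson intervals, all covering counting error only. Genes with a mean of at least 10 CPM entered the background, and 1 CPM was added before taking log2. Cells were thinned to 1000 UMIs with a fixed seed for shares and Fano factors, and the procedure was checked on simulated data.

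All members were named. Of the pathway lists, up to 4 genes with the highest mean CPM were named, as were other genes among the 10 per library that correlated most with the type I-style sum. One item that this rule names is not reported here. The members and lists were chosen with earlier results of these data known. Doublets were kept. An alternative left out the cells with the highest Scrublet scores (scanpy 1.11.5) in each lane or library. How many were left out was set by the number of cells and not by a doublet call (36 and 7 in the wild-type lanes, 55 in the knockout). Other alternatives changed the cell filter, the lane, the depth, the scaling, the pseudocount and the genes summed. Versions were numpy 2.4.6, scipy 1.17.1, pandas 2.3.3 and matplotlib 3.10.9.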

Additional observations from a re-analysis of the deposited data

How the results depend on the processing

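With 1 library per genotype, batch, source, sex and genotype cannot be told apart, and the knockout has the lower depth. No paired analysis was possible because each genotype had 1 library. The type I-style log2 ratio (0.69) stayed above 0 in all 12 alternatives. It was 0.90 in cells with 2000 to 4000 UMIs, 0.75 without the richest 1% of cells, 0.50 with median-of-ratios scaling, and, added after seeing the data, 0.39 without Isg15 and 0.11 without Isg15 and Rsad2. The gamma-inducible ratio (0.09) was 0.17 against lane 2, 0.041 in cells with 2000 to 4000 UMIs, -0.10 with median-of-ratios scaling and, added later, 0.19 without Cxcl9. The median over all members was 0.069 with median-of-ratios scaling. The share held by the richest 5% of cells moved for type I-style genes to 46.9% (lane 2, thinned anew) and 49.0% (without Isg15) in wild type. The thinning used above gave 43.8% (39.7 to 47.9) for the same lane 2 cells, so 46.9% is not read as a lane difference. In the knockout the type I-style share moved to 33.8% (at least 500 genes and at most 5% mitochondrial UMIs), 33.7% (thinned to 2000 UMIs) and 48.6% (without Isg15). For gamma-inducible genes it moved to 25.0% (thinned to 2000 UMIs), 25.3% (no thinning) and 25.4% (without Cxcl9) in wild type and to 22.01% (thinned to 2000 UMIs) in the knockout. Causes were not tested. Of the 38 members, 27 kept their sign in every alternative and 11 changed it in at least 1, with 7 changes in cells with 2000 to 4000 UMIs and 5 against lane 2. Against lane 2 alone 5 members were past 2-fold (Rsad2 1.82, Gbp5 1.55, Slfn5 1.29, Iigp1 1.103 and Oas1a -1.07), with stricter cell filters 4, without the richest 1% of cells 3 and without the wild-type Ccr2 and Plac8 cells 1 (Rsad2, with Isg15 at 0.95). These counts of signs and of members past 2-fold were not made over all genes, so nothing about the list is read from them.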

Other observations

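A wider set of interferon-induced genes was also read. Of 41 further genes listed, 37 were found and 30 had a mean of at least 10 CPM, of which 15 were higher and 15 lower in the knockout (median log2 ratio 0.01), where 62.3% of all genes were higher. With median-of-ratios scaling 11 were higher and 19 lower (median -0.18). The 4 with the highest mean were all lower in the knockout. Ifitm3, a membrane protein that blocks viral fusion and is also abundant in monocytes, had 1285 CPM in wild-type lane 1, 1423 CPM in lane 2 and 583 CPM in the knockout (log2 -1.18). Ly6e had 963, 1130.0 and 823 CPM (-0.30), Ifi27l2a 857, 910 and 655 CPM (-0.41) and Psmb8, a catalytic subunit of the immunoproteasome, 514, 577 and 304 CPM (-0.81). In each of these 4 genes the knockout was below both lanes.

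Outside the 38 members, the genes whose thinned UMIs followed the type I-style sum over 3015 wild-type cells most closely included Ifi205 (Pearson r 0.23), Mnda (0.23), Mndal (0.21), Phf11b (0.19), Ifi203 (0.19), Gm4955 (0.17), Rnf213 (0.17), Trim30d (0.16) and Ifi35 (0.16). Over 2416 knockout cells they included Pydc4 (0.20), Trim30d (0.17), Rgs1 (0.16), Mmp13 (0.16), Ifi203 (0.15), Ncoa7 (0.14), Il1b (0.14), Treml4 (0.14) and Malat1 (0.14). Trim30d and Ifi203 were found in both libraries. Cells of 1 library share its depth and free RNA, such sparse correlations are weak, and they serve as a description only. Over the same cells the type I-style sum had r of 0.28 in wild type and 0.24 in the knockout with the gamma-inducible sum, and 0.36 and 0.34 with Cxcl10.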
